A study of Mus musculus with 8 samples.

Results

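The JH segments IGHJ1, IGHJ2, IGHJ3 and IGHJ4 are the joining segments of the mouse immunoglobulin heavy-chain locus, and all 4 are described here across 8 samples of sorted pro-B cells. They were chosen by name, and they are 4 of the 184 heavy-chain segments with at least 1 read in any sample. All 4 were among the 146 segments with at least 10 reads in total and had reads in all 8 samples. For assembled heavy chains, the members of a JH segment are the clonotypes whose contig names that segment as its single J gene. A clonotype is a distinct nucleotide sequence of a complete CDR3, the third complementarity-determining region, read from its first cysteine (C) to its last tryptophan (W). Of 3882 complete clonotypes, 2882 named a JH segment, 322 of them IGHJ1, 1267 IGHJ2, 546 IGHJ3 and 747 IGHJ4.

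The samples were 4 controls and 4 Setd2 knockouts, all sorted from bone marrow at 8 weeks of age as cells carrying B220 and Cd43 and lacking IgM and CD25, without treatment. Setd2 encodes the methyltransferase that places trimethylation on lysine 36 of histone H3. The allele, the Cre line or promoter, the strain and the number of animals behind a sample are not given in the sources used here. A p-value here therefore sets a group difference against the scatter of these libraries, which may not be independent animals. Part of that scatter may be technical. Poly-A RNA was sequenced in single-end reads of 75 bases, and all 8 libraries carried the same sequencing batch.

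A heavy-chain variable exon is built in developing B cells when the recombinase RAG first joins a D segment to a JH segment and then a VH segment to the joined DJ. The JH segment supplies the end of the CDR3, up to and including the conserved tryptophan, and the last framework region after it. Bases can be trimmed from the JH end and other bases added before ligation. The unbroken stretch of germline JH bases that a CDR3 still carries is shortened by trimming, and also by any changed base within it. D to JH joining is the step at which pro-B cells begin heavy-chain rearrangement, and transcripts from the JH region can also start upstream of it before any VH segment is joined.

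The 4 germline sequences are shown because the kept JH bases and the germline matches below are measured against them. They are GENCODE M21 transcripts on GRCm38, the assembly of build mm10, on the minus strand, written 5′ to 3′, with the part that encodes the CDR3 end through the tryptophan codon in capitals. Each is a single exon of an IG_J_gene, followed by a splice donor that joins it to the constant region.
IGHJ1 at chr12:113429781-113429833: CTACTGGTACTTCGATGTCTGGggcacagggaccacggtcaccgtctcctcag
IGHJ2 at chr12:113429468-113429515: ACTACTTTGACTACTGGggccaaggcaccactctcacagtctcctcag
IGHJ3 at chr12:113429085-113429132: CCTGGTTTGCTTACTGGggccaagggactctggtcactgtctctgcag
IGHJ4 at chr12:113428514-113428567: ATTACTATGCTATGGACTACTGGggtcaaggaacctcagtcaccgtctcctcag

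IGHJ1 lies nearest the D segments, 694 bases from the last of them, and IGHJ4 lies farthest, at 1960 bases. The CDR3-encoding part is 22 bases in IGHJ1, 17 in IGHJ2, 17 in IGHJ3 and 23 in IGHJ4, and each segment has 31 bases after it. Counted back from the tryptophan codon, IGHJ2 and IGHJ4 share their last 9 CDR3 bases, whereas IGHJ1 shares 4 bases with each of the others. By this measure IGHJ2 and IGHJ4 were the least distinct pair.

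Example CDR3 sequences show what these ends look like after joining. Each is the clonotype with the most contig reads of its JH segment in its group, or one of those tied for it, and the capitals mark the unbroken run of germline JH bases counted back from the tryptophan codon.
IGHJ1, control 1, 12 reads: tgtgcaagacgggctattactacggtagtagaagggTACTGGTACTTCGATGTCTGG
IGHJ1, knockout 1, 29 reads: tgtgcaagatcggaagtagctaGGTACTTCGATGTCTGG
IGHJ2, control 2, 54 reads: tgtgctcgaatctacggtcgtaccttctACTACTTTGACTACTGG
IGHJ3, knockout 4, 418 reads: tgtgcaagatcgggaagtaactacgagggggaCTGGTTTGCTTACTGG
IGHJ4, knockout 2, 89 reads: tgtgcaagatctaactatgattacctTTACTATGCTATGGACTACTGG

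The first of these kept 21 of 22 IGHJ1 bases and the second kept 17. The IGHJ2 example kept all 17 germline bases. The IGHJ3 example kept 16 of 17 bases and held 22.5% of the contig reads of knockout 4 with a named JH segment (95% Wilson interval 20.7 to 24.4%, counting error only). Its nucleotide sequence was also found in 1 other sample.

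The controls had 64488 to 89908 heavy-chain locus reads each and the knockouts 12102 to 100600. The 4 JH segments together had 560 to 1062 reads per control and 268 to 1025 per knockout. Knockout 3 stood apart: it had 12102 heavy-chain reads, VH segments took 13.5% of them against 43.4 to 59.4% in the other 7 samples, and it had 58 clonotypes with a named JH segment. Clonotypes with a named JH segment numbered 487 to 647 in controls and 58 to 193 in knockouts. Switched constant regions, IGHD and light chains, taken as markers of later B-lineage stages, had reads in every library of this IgM-negative sort. IGHM is given beside them as an unswitched constant region and was not taken as a marker of another stage. Switched constant regions (IGHG, IGHA and IGHE) took 51.0 to 57.6% of constant-region reads in controls and 6.69 to 44.2% in knockouts, and IGHM took 41.4 to 48.0% and 55.4 to 92.7%, without overlap for either. IGHD took 0.651 to 0.977% and 0.467 to 0.759%, and light-chain reads were 1.10 to 1.505 and 0.492 to 1.44 times the heavy-chain reads. IGHE, one of the switched markers, had 8 to 25 reads in controls and 1 to 3 in knockouts. These libraries are bulk samples, so fewer cells of a type and less RNA per cell cannot be told apart, and the part of these markers in the results on JH segments was not tested.

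The J gene named by each contig was checked against the germline sequences. All 322 IGHJ1 clonotypes matched IGHJ1 best, as did 1266 of 1267 for IGHJ2 and 540 of 546 for IGHJ3. Of 747 clonotypes named IGHJ4, 601 matched IGHJ4 best, 131 matched IGHJ2 better and 15 matched IGHJ3 better. One of them, from control 2 with 70 contig reads, shows the difference. Its CDR3 with the following bases is printed with the 13 bases after the tryptophan codon in capitals, of which 13 match IGHJ2 and 10 match IGHJ4.
Control 2, named IGHJ4: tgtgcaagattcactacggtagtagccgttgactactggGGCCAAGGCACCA

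The 1000 complete clonotypes without a named J gene were 24.3 to 29.8% of complete clonotypes in controls and 15.5 to 24.8% in knockouts. Their contigs were short after the CDR3, with a median of 4 bases past the tryptophan codon, against 27 bases where a JH segment was named. By germline match 831 of them could be given to a single segment and 169 were tied. IGHJ1 made up 21.3% of these 831, against 11.2% of the clonotypes with a named segment. This share leaves out the 169 ties, and 177 of all 1000 matched IGHJ1 best. In controls IGHJ1 was 22.5% of the unnamed clonotypes without a tie and 10.4% of the named clonotypes, and in knockouts it was 14.9% and 14.2%.

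Reads on germline JH segments were compared first, as shares of the reads on all 4. In controls 1 to 4 IGHJ1 took 57.9, 55.7, 55.3 and 53.9%, and the knockouts in the same order had 62.6, 58.8, 76.9 and 62.7%. All 4 knockouts lay above all 4 controls, with knockout 3 far above the rest. The means were 55.7% ± 1.66 (SD, n = 4) and 65.3% ± 7.96 (SD, n = 4), a difference of 9.55 percentage points (by a two-sided exact permutation test, p = 0.0286, the smallest that 4 against 4 samples can give, adjusted p = 0.207 over 29 readouts). Without knockout 3 the difference was 5.68 points, and no arrangement of 4 against 3 samples can give a p below 0.0571.

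IGHJ2, the second segment in the order along the chromosome, went the other way. The 4 shares make up a whole, so a higher share of IGHJ1 leaves less for the others together. Its shares were 12.2, 13.2, 11.5 and 14.8% in controls and 10.1, 9.07, 1.87 and 9.17% in knockouts. Every knockout lay below every control, and knockout 3 was again the most distant sample, with 5 IGHJ2 reads of 268 (95% Wilson interval 0.799 to 4.29%). The means were 12.9% ± 1.44 and 7.56% ± 3.82, a difference of -5.37 points (by exact permutation, p = 0.0286, adjusted p = 0.207), and -3.47 points without knockout 3. Across all 29 readouts on JH usage, CDR3 length, JH bases and VH partners, 4 had an exact p under 0.05, which is 13.8%, and none had an adjusted p under 0.05.

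IGHJ3 and IGHJ4 did not separate the groups by share of reads. IGHJ3 took 8.76, 11.01, 12.6 and 10% in controls and 10, 8.32, 3.73 and 8.88% in knockouts (by exact permutation, p = 0.143). IGHJ4 took 21.1, 20.1, 20.7 and 21.3% in controls and 17.3, 23.8, 17.5 and 19.2% in knockouts (by exact permutation, p = 0.40). The controls lay close together for IGHJ4, whereas 1 knockout lay above and 3 lay below all of them.

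**Figure D1:**
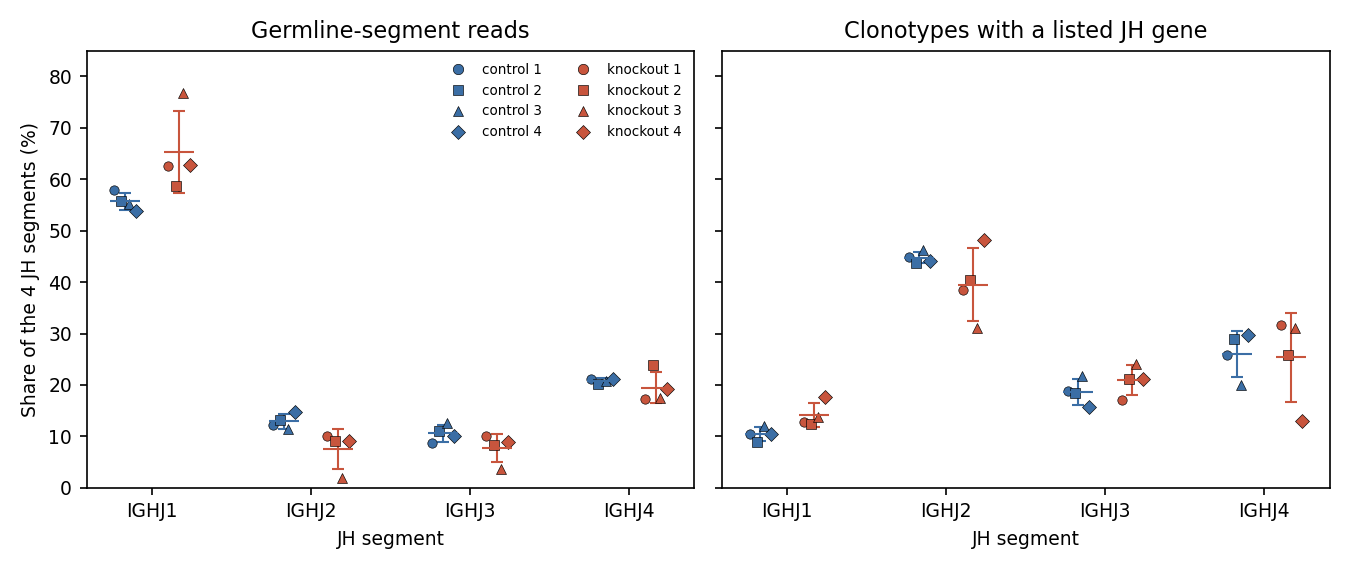
Share of each JH segment, in percent of the 4 segments, by germline-segment reads (left) and by clonotypes with a named JH gene (right). Points are samples, horizontal bars are group means and whiskers are 1 SD (n = 4 per group). IGHJ1 is the highest segment by reads, at 53.9 to 76.9%, and IGHJ2 the highest by clonotypes in 7 of 8 samples against IGHJ4 and in all 8 against IGHJ1 and IGHJ3; knockout 3 has IGHJ2 and IGHJ4 at the same 31.03%.

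In relation to all heavy-chain locus reads, IGHJ1 had 6840, 4584, 5381 and 3965 reads per 1000000 such reads (RPM) in controls and 10087, 7518, 17022 and 6392 in knockouts. Knockouts 1, 2 and 3 lay above all controls, and knockout 4 lay within their range. IGHJ2 had 1446, 1085, 1116 and 1090 RPM in controls and 1629, 1160, 413 and 934 in knockouts, so the groups overlapped. The log2 RPM, summed over the 4 JH segments, averaged 13.2 in controls and 13.8 in knockouts, a difference of 0.68 (by exact permutation, p = 0.0571, adjusted p = 0.237). Taken alone, 0 of the 4 JH segments and 0 of the 146 segments (0%) had all knockouts above all controls on this scale.

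The count test over the 146 segments gave the same picture for single segments. With the total of segment reads as library size, IGHJ1 had a log2 fold change of 0.98 (SE 0.62, edgeR quasi-likelihood test, Benjamini-Hochberg adjusted p = 0.275), IGHJ4 of 0.59 (adjusted p = 0.559), IGHJ3 of 0.18 and IGHJ2 of -0.18. Thus 0 of 4 JH segments passed at an adjusted p under 0.05, also 0 of 4 at an unadjusted p under 0.05, while 26 of 146 segments passed (17.8%), all of them lower in knockouts. That number rested on the scaling and on single libraries. It was 0 under TMM scaling and with the VH total as library size, and also 0 without control 2, control 3, knockout 3 or knockout 4. It was 7 without control 1, 2 without control 4, 40 without knockout 2 and 9 with no filter on low counts. The median over all 146 segments was -1.17 on the log2 scale under this scaling, 0.04 under TMM scaling and 0.16 in DESeq2. Relative to that median IGHJ1 stood at 2.15, 2.41 and 2.42, IGHJ4 at 1.76, 1.92 and 1.91, IGHJ3 at 1.35, 1.41 and 1.41, and IGHJ2 at 0.99, 0.96 and 0.998.

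DESeq2, with its own size factors, called 3 of the 4 JH segments higher in knockouts. It called 11 of 146 segments (7.53%), 7 of them higher (4.79%) and 4 lower (2.74%). The log2 fold change was 2.58 for IGHJ1 (DESeq2 adjusted p = 0.00465), 2.07 for IGHJ4 (DESeq2 adjusted p = 0.00483) and 1.57 for IGHJ3 (DESeq2 adjusted p = 0.027), and IGHJ2 with 1.16 did not pass. Over the alternative fits the adjusted p of IGHJ1 ran from 0.00465 to 0.518. The sign of IGHJ2 turned with the scaling, from -0.18 to 0.996 under TMM scaling and 1.16 in DESeq2.

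VH segments and constant regions give the setting for these values. In the edgeR test 2 of 18 proximal VH segments (families 2 and 5, nearest the D segments), 8 of 33 intermediate and 16 of 79 distal VH segments (families 1 and 8) were lower in knockouts and none higher, with medians of -0.46, -1.11 and -1.43 on the log2 scale. Under TMM scaling, with the VH total as library size, and without control 2, control 3, knockout 3 or knockout 4, 0 VH segments were called in each of the 3 lists. DESeq2 called 2 intermediate VH segments higher and 2 lower, and 1 distal VH segment higher and 2 lower. The 4 JH segments had a median of 0.39 in the edgeR test, and the 2 unswitched constant regions IGHM and IGHD one of 0.46, with 0 of 2 called. None of 6 switched constant regions was called either, with a median of -1.43.

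The segment whose RPM values were most like those of IGHJ1 over the 8 samples, among the 87 segments outside the JH group with a mean of at least 50 reads, was IGHM, the constant region of the first heavy chain a B cell makes (Pearson r = 0.97 on the log2 scale, and 0.96 without knockout 3). The next of these 87, IGHD, had r = 0.41. Within the JH group IGHJ1 and IGHJ4 had r = 0.94. Outside it IGHJ4 was also most like IGHM (r = 0.89), IGHJ2 most like the distal segment IGHV1-18 (r = 0.95) and IGHJ3 most like IGHG3 (r = 0.87). These are descriptions over 8 libraries that share a denominator, and in which knockout 3 stands apart. Without knockout 3 the r with IGHM was 0.71 for IGHJ2, from -0.66 with it, and 0.77 for IGHJ3, from 0.05.

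Per 1000 IGHM reads, IGHJ1 had 26.4, 27.8, 25.5 and 21.5 reads in controls and 29.0, 28.9, 21.8 and 27.0 in knockouts. The groups overlapped on this scale, with means of 25.3 ± 2.72 and 26.7 ± 3.38 (SD, n = 4). IGHJ2 had 5.58, 6.58, 5.29 and 5.90 reads per 1000 IGHM reads in controls and 4.68, 4.47, 0.529 and 3.95 in knockouts. Here the knockouts again lay below all controls, with no test made. The share of all segments that do so was not counted on this scale, so the separation is not read as particular to IGHJ2. The divisor IGHM itself had 164773 to 259076 RPM in controls and 236819 to 780780 in knockouts. On the RPM scale, where the groups overlapped for IGHJ2, 45 of 146 segments (30.8%) had all knockouts below all controls. The groups overlapped for IGHJ3 (3.98 to 5.80 in controls, 1.06 to 4.63 in knockouts) and IGHJ4 (8.46 to 10.04 and 4.97 to 11.7).

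**Figure D2:**
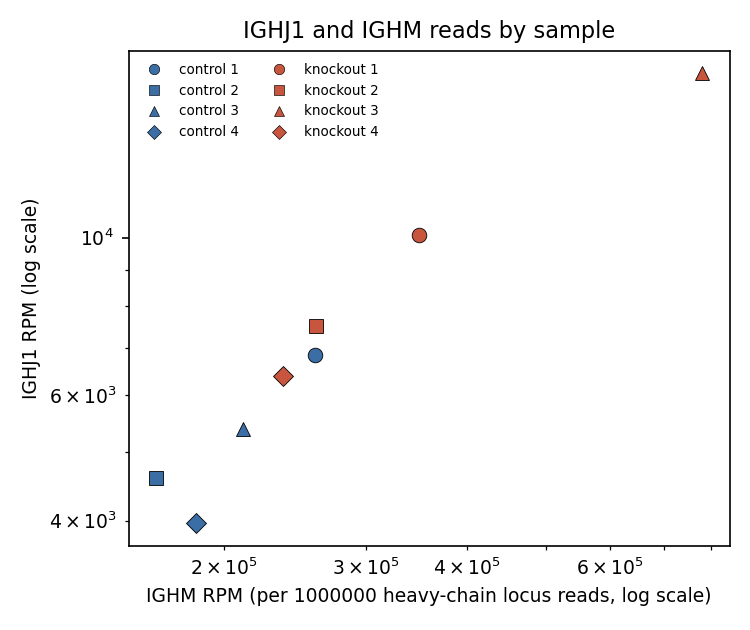
Reads on IGHJ1 against reads on IGHM in the 8 samples, both in RPM (reads per 1000000 heavy-chain locus reads), on log axes; each point is 1 sample. The points lie near a line (r = 0.97), with knockout 3 at the upper right and the other 7 samples between 3965 and 10087 IGHJ1 RPM.

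Clonotypes gave a different order of the segments from reads. By clonotypes IGHJ1 was 10.5, 8.82, 12.1 and 10.5% in controls and 12.8, 12.4, 13.8 and 17.6% in knockouts. All knockouts lay above all controls, but the lowest knockout and the highest control, 12.4 and 12.1%, lay closer than the SD of either group (by exact permutation, p = 0.0286, adjusted p = 0.207). When the JH segment was taken from the germline match for all complete clonotypes, IGHJ1 was 13.3% ± 1.49 in controls and 14.2% ± 1.75 in knockouts, a difference of 0.89 points, and the groups overlapped (by exact permutation, p = 0.486). With clonotypes weighted by contig reads the difference was 6.22 points (by exact permutation, p = 0.171), with clonotypes by amino acid sequence 3.16 (by exact permutation, p = 0.0571) and without contigs that listed a switched constant region 4.55 (by exact permutation, p = 0.0571). With at least 2 contig reads the difference was 5.53 points and at an equal number of contig reads 4.84 (both by exact permutation, p = 0.0286). The sign was the same in all of these counts, while the call depended among others on whether clonotypes without a named J gene were counted.

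**Figure D3:**
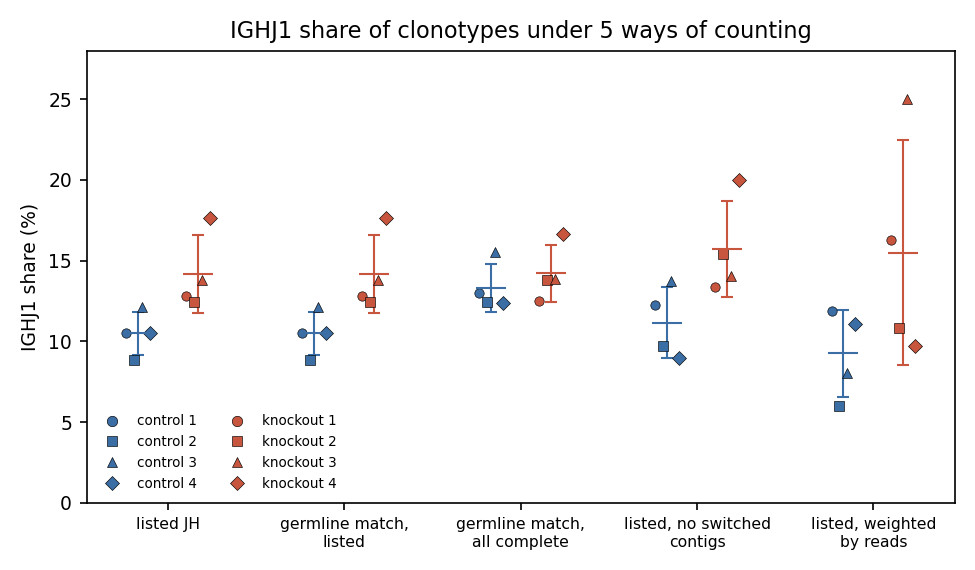
IGHJ1 share of clonotypes in percent, counted in 5 ways: by the named J gene, by germline match within the named clonotypes, by germline match in all complete clonotypes, without contigs of a switched constant region, and weighted by contig reads. Points are samples, bars are means and whiskers 1 SD (n = 4 per group). The groups lie apart in the first way of counting and in the second, which holds the same IGHJ1 clonotypes, and overlap in the other 3 ways.

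By clonotypes IGHJ2 was the most frequent segment in 7 of 8 samples, and level with IGHJ4 in knockout 3. It was 44.8, 43.8, 46.2 and 44.1% in controls and 38.4, 40.4, 31.03 and 48.2% in knockouts (by exact permutation, p = 0.20). Without switched contigs IGHJ4 led in control 2 (41.6 against 33.2%) and IGHJ2 in the other samples. Weighted by contig reads IGHJ2 led only in controls 1, 2 and 4 and knockout 1, and IGHJ4 led in control 3 and knockout 2. IGHJ3 lay between 15.7 and 21.8% in the controls and between 17.1 and 24.1% in the knockouts, and IGHJ4 between 19.9 and 29.7% and between 12.9 and 31.7%. Knockout 4 had both the highest IGHJ1 and the lowest IGHJ4 share of all 8 samples. Weighted by contig reads, IGHJ3 was 42.2% of knockout 4, where the 1 clonotype of 418 reads printed above held 53.2% of the IGHJ3 contig reads.

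Set beside each other, reads and clonotypes placed IGHJ1 and IGHJ2 in opposite order in 8 of 8 samples. The IGHJ1 share of reads was 3.55 to 6.32 times its share of clonotypes in every sample, and the IGHJ2 share of reads was 0.060 to 0.336 times its share of clonotypes. IGHJ3 lay at 0.155 to 0.639 times and IGHJ4 at 0.545 to 1.49 times. Per base of the segment, IGHJ1 had 98.0 ± 23.4 RPM in controls and 193 ± 90.0 in knockouts, IGHJ4 35.8 ± 7.81 and 54.0 ± 14.7, IGHJ2 24.7 ± 3.65 and 21.5 ± 10.5, and IGHJ3 20.3 ± 4.31 and 22.9 ± 7.37 (SD, n = 4). IGHJ1 was the highest per base in 8 of 8 samples and IGHJ4 came after it, while the ranges of IGHJ2 and IGHJ3 overlapped in both groups, with IGHJ2 the higher in 6 of 8 samples. The excess of the IGHJ1 read share over its clonotype share was 45.2 points in controls and 51.1 in knockouts (by exact permutation, p = 0.171). This difference of 5.87 points was 1.87 without knockout 3, the sample with 63.1 points. Reads on a segment and reads of assembled contigs were separate counts, and neither contained the other. In control 2 IGHJ2 had 97 segment reads and 1226 contig reads, and IGHJ1 had 410 and 148. Segment reads therefore did not include all transcripts that cross a segment. Clonotypes hold only transcripts assembled through a complete CDR3. Which transcripts made the excess was not tested.

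The germline JH bases kept at the CDR3 end were counted as the unbroken run back from the tryptophan codon. The run ends at the first base that differs from germline, so trimmed and changed bases were not told apart. IGHJ1 clonotypes kept 17.3, 17.3, 16.9 and 16.7 of 22 bases on average in the 4 controls, and in the knockouts 20, 17.8, 20.8 and 18.7. The controls lay within a single base of one another, and every knockout was above them. The means were 17.0 ± 0.301 and 19.3 ± 1.31 bases (SD, n = 4), a difference of 2.28 bases (by exact permutation, p = 0.0286, adjusted p = 0.207). The knockout means rest on 21, 24, 8 and 30 clonotypes, and the difference was 1.80 bases without knockout 3.

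This difference kept its sign and an exact permutation p of 0.0286 when the JH segment came from the germline match for all complete clonotypes (3.07 bases), with 1 mismatch allowed (1.68), for clonotypes with at least 2 contig reads (2.40), weighted by contig reads (2.06), by amino acid sequence (2.26) and without switched contigs (2.65). The germline match itself scores this run, so its value is not independent of the run. Of the 322 IGHJ1 clonotypes, 63 listed a constant region, and 62 of these listed a switched one. The count without switched contigs thus kept almost only clonotypes that listed none, and it does not separate switched from unswitched transcripts. The share of IGHJ1 clonotypes with the whole germline part gave a difference of 16.2 points that did not pass (by exact permutation, p = 0.343). That share was 10.2 to 15.1% in controls, 42.9 and 50% in knockouts 1 and 3, and 12.5 and 10% in knockouts 2 and 4.

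The other segments had differences of the same sign that did not pass, and with 1 mismatch allowed these were 0.016 bases for IGHJ2, 0.353 for IGHJ3 and 0.164 for IGHJ4. IGHJ2 clonotypes kept 13.13, 13.21, 12.95 and 12.91 of 17 bases in controls and 14.2, 13.5, 14.6 and 13.2 in knockouts (by exact permutation, p = 0.0571), where knockout 4 lay within the control range. IGHJ3 clonotypes kept 12.4 ± 0.707 and 13.4 ± 0.434 of 17 bases (by exact permutation, p = 0.0571). IGHJ4 clonotypes kept 14.3 ± 0.74 and 15.3 ± 1.18 of 23 bases (by exact permutation, p = 0.229). Per segment, by the named J gene, IGHJ1 kept a larger part of its germline bases than each of the other segments in 8 of 8 samples. IGHJ4 by that naming kept a smaller part than each of the others in 8 of 8. That place of IGHJ4 did not hold throughout by germline match of the named clonotypes. In knockout 4 IGHJ4 then kept 17.9 of 23 bases, and IGHJ2 and IGHJ3 each kept 12.9 of 17.

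**Figure D4:**
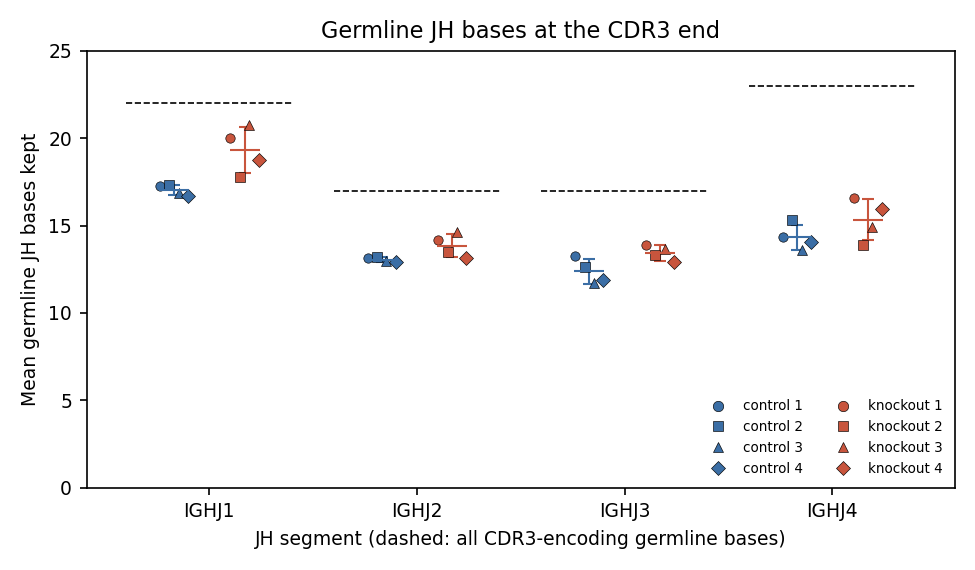
Mean number of germline JH bases kept at the CDR3 end, for each JH segment and sample; bars are group means, whiskers 1 SD (n = 4 per group), and dashed lines mark the full germline part. For IGHJ1 the controls lie between 16.7 and 17.3 bases and the knockouts between 17.8 and 20.8.

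Pooled over samples, the distributions show where the difference in IGHJ1 lay. Of 239 control clonotypes of IGHJ1, 33.1% kept at least 20 bases, and of 83 knockout clonotypes 59.0% did. At a run of at least 12 bases the values were 94.1% and 97.6%. In clonotypes of IGHJ2 the whole germline part of 17 bases was kept by 26.0% in controls and 32.0% in knockouts, and the whole 17 bases of IGHJ3 by 20.1% and 23.5%.

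**Figure D5:**
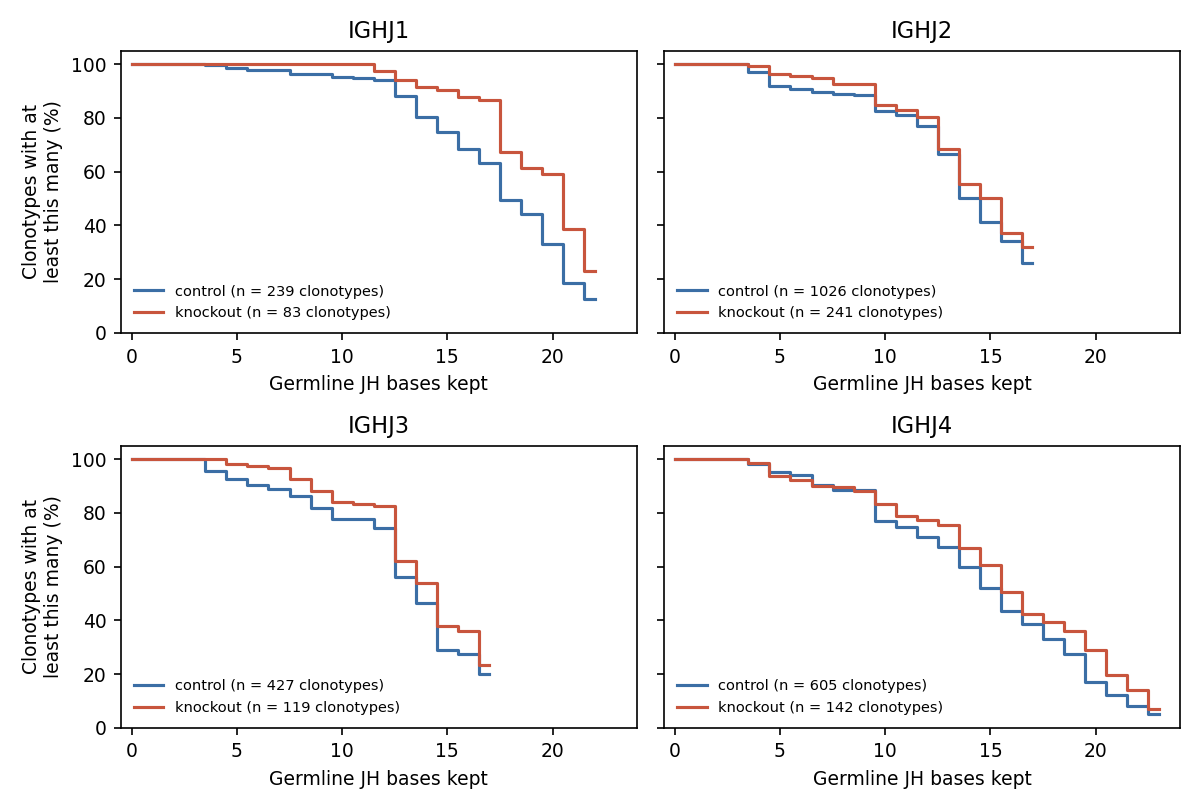
Share of clonotypes, in percent, that kept at least a given number of germline JH bases, pooled over the 4 controls and over the 4 knockouts, with 1 panel per JH segment. The curves of IGHJ1 stand farthest apart, with 33.1% and 59.0% at 20 bases; clonotypes of a sample share their library and the curves carry no test.

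At the protein level the germline ends are YFDVW for IGHJ1, YFDYW for IGHJ2, WFAYW for IGHJ3 and AMDYW for IGHJ4. The IGHJ1 end was intact in 79.4, 86.8, 79.7 and 67.8% of clonotypes in controls and in 100, 91.7, 100 and 90.0% in knockouts, with the 2 values of 100% resting on 21 and 8 clonotypes. After it, FFDVW with 14 of 322 clonotypes and NFDVW with 7 were the most frequent ends. The intact end was found in 44.6% ± 3.95 of IGHJ2 clonotypes in controls and 52.7% ± 6.19 in knockouts, in 29.6% ± 3.74 and 38.4% ± 8.00 for IGHJ3, and in 52.6% ± 7.91 and 62.6% ± 12.4 for IGHJ4. These shares come from the same CDR3 ends as the base counts and were not tested again. GFAYW, in 84 of 546 IGHJ3 clonotypes, was the most frequent end with a changed residue in that segment.

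CDR3 length differed between the JH segments. IGHJ1 clonotypes had longer CDR3s than IGHJ2 and IGHJ3 clonotypes in 8 of 8 samples and longer ones than IGHJ4 clonotypes in 7 of 8. By germline match of the named clonotypes, IGHJ4 was the longer in knockout 3 as well (13.94 against 13.75 amino acids). The control means were then 14.03 for IGHJ4 and 13.94 for IGHJ1. Mean lengths for IGHJ1 were 14.10, 14.13, 13.98 and 13.53 amino acids in controls and 15.3, 15.7, 13.8 and 16.6 in knockouts, so that knockouts 1, 2 and 4 lay above all controls and knockout 3 lay within their range (by exact permutation, p = 0.114). In knockout 4 the median was 14 amino acids and the longest CDR3 had 34. IGHJ4 clonotypes averaged 13.6 ± 0.233 and 14.1 ± 0.386 amino acids (by exact permutation, p = 0.0857). IGHJ2 clonotypes averaged 13.01 ± 0.107 and 13.1 ± 0.244, and IGHJ3 clonotypes 13.1 ± 0.248 and 13.1 ± 0.604.

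The bases of the CDR3 outside the germline JH run, which come from VH, D and added bases, numbered 24.8 to 26.9 on average over the 4 segments in controls. For IGHJ1 they numbered 24.8 ± 0.601 in controls and 26.7 ± 4.66 in knockouts, with knockout 3 at 20.5 and knockout 4 at 31.1. IGHJ1 clonotypes had more of these bases than IGHJ2 clonotypes in 2 of 8 samples.

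The VH partners of each JH segment were read from the listed V genes where these share a family. For IGHJ1 the proximal families 2 and 5 made up 22.5, 16.7, 11.9 and 10.2% in controls and 20, 9.09, 14.3 and 36.4% in knockouts, on 7 to 49 clonotypes a sample (by exact permutation, p = 0.60). The distal families 1 and 8 were 71.0% ± 5.83 of IGHJ1 partners in controls and 58.1% ± 14.4 in knockouts (p = 0.20 by exact permutation). The difference of -12.9 points was -7.78 without knockout 3, which had 7 such clonotypes, -19.3 without knockout 2, and -22.4 without switched contigs (p = 0.114 by exact permutation). None of the 8 partner readouts of the 4 segments passed, and the smallest exact permutation p among them was 0.20. Pooled over all samples, proximal families were 8.72% of 872 IGHJ2 clonotypes with a family, 16.7% of 233 for IGHJ1, 15.6% of 372 for IGHJ3 and 14.5% of 484 for IGHJ4. These pooled shares weight samples by their clonotypes and carry no test.

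A D family was given to a clonotype where 8 or more bases matched a D segment. Among IGHJ1 clonotypes, 182 had a D family, with 83 in D1, 89 in D2, 10 in D4 and 0 in D3, which allows a share of up to 1.65%. The D3 family was found in 24 of 620 IGHJ2, 25 of 301 IGHJ3 and 17 of 393 IGHJ4 clonotypes. D4, whose single segment lies next to IGHJ1, was 5.49% of IGHJ1 partners, 10.8% of IGHJ2, 12.96% of IGHJ3 and 9.41% of IGHJ4 partners. A short D segment is matched only when little of it was trimmed, and the effect of that on these shares was not tested.

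The bases after the tryptophan codon were often identical between clonotypes. Each JH segment has 31 bases there, so unchanged contigs of the same segment and constant region match whatever their origin. Only a shared change bears on whether clonotypes are independent. Of the 2882 clonotypes, 1105 had contigs that reached at least 40 bases past it, and within a sample and JH segment many of these were identical over all 40. In control 3, 72 IGHJ2 clonotypes, in 11 different CDR3 lengths, carried the same 40 bases with the changes A30C and A38T, counted from 1 at the 5′ end of germline IGHJ2 with the germline base first, and all 72 listed IGHA as constant region. In control 2, 59 of 157 such IGHJ2 clonotypes carried 1 identical stretch without a change in the JH part, and all 59 listed IGHA. In control 4, the 26 IGHJ4 clonotypes that shared their 40 bases listed no constant region at all, and in control 1 all 40 of the corresponding IGHJ4 clonotypes listed IGHA.

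Position 30 of IGHJ2 shows how far a change that recurs within a sample sets a value. It differed from the germline base in 6.83, 26.6, 41.2 and 1.71% of the controls' clonotypes and in 2.38, 1.79, 0 and 4.62% in knockouts, where the 0 of 14 clonotypes of knockout 3 allows up to 21.4%. Controls 2 and 3 were high and the other samples low, with A30G in 54 of 233 clonotypes of control 2 and A30C in 74 of 204 of control 3. The median over the 31 positions after the codon was 1.08% for IGHJ2. A constant region was listed by 708 of the 1105 long contigs and by 9 of the other 1777. It was a switched one in 62 of 63 IGHJ1, 369 of 369 IGHJ2, 139 of 139 IGHJ3 and 146 of 146 IGHJ4 clonotypes. Leaving out switched contigs thus removed nearly all clonotypes that listed a constant region, and the isotype of the rest is unknown. The constant region of a contig was therefore used here only to leave out clonotypes in an alternative count, and no JH segment is described by isotype.

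Few CDR3 sequences recurred between samples. Of 321 distinct IGHJ1 sequences 1 was found in more than 1 sample, of 1248 IGHJ2 sequences 17, of 540 IGHJ3 sequences 6 and of 744 IGHJ4 sequences 3.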

How the data were processed

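Each sample had deposited tables of assembled heavy-chain contigs and of read counts per gene segment. Per the submitters' processing notes reads were aligned with STAR 2.5.1 to mm10, and per the series design text contigs were assembled with TRUST (version: not given in the sources used here). Deposited segment counts and contig read counts are raw whole numbers, per the file headers. The deposited expression score of each contig and the light-chain contigs were not used. The depth of the whole libraries is unknown.

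Complete clonotypes were counted once per sample. Germline JH sequences came from GENCODE M21. A germline match scored matching bases after the tryptophan codon, minus 2 for each mismatch there, plus the unbroken run of germline bases back from the codon. Sample readouts were compared with two-sided exact permutation tests over 70 arrangements, called at p under 0.05, with Benjamini-Hochberg values over 29 readouts. Segment counts were tested with the edgeR 4.0.16 quasi-likelihood test (R 4.3.3) over segments with at least 10 counts, with the segment total as library size and Benjamini-Hochberg adjustment, and with DESeq2 1.42.0 as an alternative. The test was checked on simulated data. Intervals are Wilson 95% intervals and cover counting error only. Python 3.11.15, numpy 2.4.6, pandas 2.3.3, scipy 1.17.1 and matplotlib 3.10.9 were used. Reads of near-identical VH paralogs can be divided between them, so single VH values are uncertain.

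The members, lists, tests and alternatives were chosen with earlier results of these data known. The germline match and the removal of switched contigs were added after seeing the files. Named segments were the 4 JH segments and, for each, the segments of highest correlation among those with a mean of at least 50 reads; the positions and shared stretches described after the tryptophan codon were chosen after their values were seen. Loss of Setd2 could not be read from these tables, and its transcripts were not analysed here.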

Additional observations from a re-analysis of the deposited data

Results flagged for a closer look

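Among 58 groups of 4 samples examined for a single distant sample, 2 had one, and chance alone gives about 1 in 20. Knockout 3 had an IGHJ2 share of JH reads of 1.87%, while the other knockouts lay between 9.07 and 10.1%. This is the library with 12102 heavy-chain reads, and its 5 IGHJ2 reads give a Wilson interval of 0.799 to 4.29%, below the other 3 knockouts. In control 1, proximal VH families made up 20% of IGHJ3 partners, while the other controls lay between 11.3 and 12.7%; this was 14 of 70 clonotypes.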

How the results depend on the processing

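Of 486 recomputed values of 33 results, 402 kept their direction and their side of the threshold, 37 turned in sign, 41 fell short of a threshold they had passed and 6 newly passed one; all values are knockout minus control. Leaving out 1 sample allows no p below 0.0571, so the 4 passing readouts could not pass: IGHJ1 share of reads ran from 5.68 to 11.7 points, IGHJ2 share of reads from -6.22 to -3.47, IGHJ1 share of clonotypes from 2.53 to 4.26 and IGHJ1 bases kept from 1.80 to 2.79. Signs turned over these ranges for IGHJ1 proximal partners (-0.86 to 8.23), IGHJ2 proximal partners (-1.63 to 4.63), IGHJ4 distal partners (-7.45 to 2.68), IGHJ2 reads minus clonotypes (-1.39 to 2.20), IGHJ4 reads minus clonotypes (-4.70 to 2.21), IGHJ4 share of clonotypes (-2.80 to 3.45), IGHJ3 CDR3 length (-0.26 to 0.205) and the edgeR log2 fold changes of IGHJ2 (-0.47 to 0.067) and IGHJ3 (-0.0604 to 0.31).

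With the replicate number as a replicate block, the same 4 differences (9.55, -5.37, 3.68 and 2.28) had an exact sign-flip p of 0.125, the smallest 4 pairs allow. No other call changed, which for the sign-flip readouts was fixed in advance. Deviations of same-numbered samples from their group means correlated by 0.043, -0.014, -0.045 and 0.025 over 146 segments. The numbers are not stated to mark a shared animal, litter or day, and were not taken to pair samples.

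By germline match of named clonotypes, values turned for IGHJ2 reads minus clonotypes (1.77), IGHJ3 length (0.0118) and IGHJ4 share (1.67), and IGHJ2 bases kept newly passed (0.883); over all complete clonotypes the IGHJ1 share fell short (0.889), IGHJ1 reads minus clonotypes newly passed (8.66), and IGHJ4 share (1.16) and bases kept (-0.0622) turned. Without switched contigs the IGHJ1 share fell short (4.55), and IGHJ2 proximal (-0.0676) and distal partners (0.403), IGHJ3 share (-0.421) and IGHJ4 reads minus clonotypes (1.25) turned. Weighted by contig reads, the IGHJ1 share fell short (6.22) and IGHJ2 reads minus clonotypes (4.24) and length (-0.0229) turned. With at least 2 contig reads, IGHJ3 length (0.443) and IGHJ4 reads minus clonotypes (1.85) turned and IGHJ4 length newly passed (0.785). By amino acid sequence the IGHJ1 share fell short (3.16). Measured as the share of clonotypes with the whole germline part, IGHJ1 ends fell short (16.2 points). With the first listed V gene, distal partners of IGHJ3 (1.81) and IGHJ4 (0.62) turned, and on a centred log-ratio so did the IGHJ4 share of reads (0.256). The log2 fold change of IGHJ2 turned under TMM scaling (0.996), VH totals (0.18) and DESeq2 (1.16), and DESeq2 newly passed IGHJ1 (2.58), IGHJ3 (1.57) and IGHJ4 (2.07). The cause of these changes was not tested.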
